A study of Mus musculus with 23 samples.

Results

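Fast and slow proliferating IL6Myc tumors were compared by RNA sequencing, as 5 tumors at the top and 5 at the bottom of a ranking of 14 tumor libraries by 3 proliferation genes. IL6Myc is a transgenic mouse that develops plasma cell tumors, and the series holds 23 libraries. Of these, 7 came from mesenteric lymph node (MLN) tumors and 7 from spleen tumors of 8 IL6Myc mice, all labelled malignant plasma cells and untreated, and 6 mice gave both tumors. The other 9 were splenic B cells of wild-type Balb/c mice, 4 libraries of untreated quiescent cells and 5 of cells activated for 16 hours with 1 µg/ml of the bacterial mitogen lipopolysaccharide (LPS). All samples were enriched for B cells by negative magnetic selection. For the tumor mice, the sources used here give neither the elements that drive the transgenes nor strain and age.

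The classes were chosen by these measured values. The ranking score was the mean of log2(CPM + 1) of MKI67, TOP2A and BIRC5, where CPM is the count scaled to a common library total. Proliferation was not measured in any other way, so fast and slow stand here for the level of these transcripts, and these 3 genes are given only as a description. The 5 highest tumors, called fast, were in this order the MLN tumor of mouse 1609, the spleen tumors of mice 1611, 1615 and 1614, and the MLN tumor of mouse 1614. The 5 lowest, called slow, were in falling order the spleen tumor of mouse 1613, the MLN tumors of mice 1611, 1616 and 1613, and the spleen tumor of mouse 1616. The 4 tumors between were the spleen tumor of mouse 1612, the MLN tumor of mouse 1615 and both tumors of mouse 1610. The fast tumors thus came from 4 mice and the slow ones from 3, and mouse 1611 gave a fast spleen tumor and a slow MLN tumor. Tumors of 1 mouse are not independent of each other. Both classes held MLN and spleen tumors.

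Scores in the fast class ran from 8.32 (MLN tumor of mouse 1609) down to 7.92 (MLN tumor of mouse 1614), and the first tumor outside it, the spleen tumor of mouse 1612, stood at 7.47. In the slow class they ran from 7.12 (spleen tumor of mouse 1613) to 6.2 (spleen tumor of mouse 1616), and the nearest tumor outside, the MLN tumor of mouse 1610, stood at 7.23. The margin between the classes and the tumors outside them was therefore wider at the top than at the bottom of the ranking. Quiescent B cells scored 3.36 to 3.69 and LPS-activated B cells 7.10 to 7.64. The slow tumors thus stood far above resting B cells and at or under the activated ones, and the fast tumors stood above both. With TMM scaling, which adjusts totals for the makeup of each library, the same 5 tumors were highest, but the spleen tumor of mouse 1610 took the place of the MLN tumor of mouse 1616 among the 5 lowest.

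**Figure D1:**
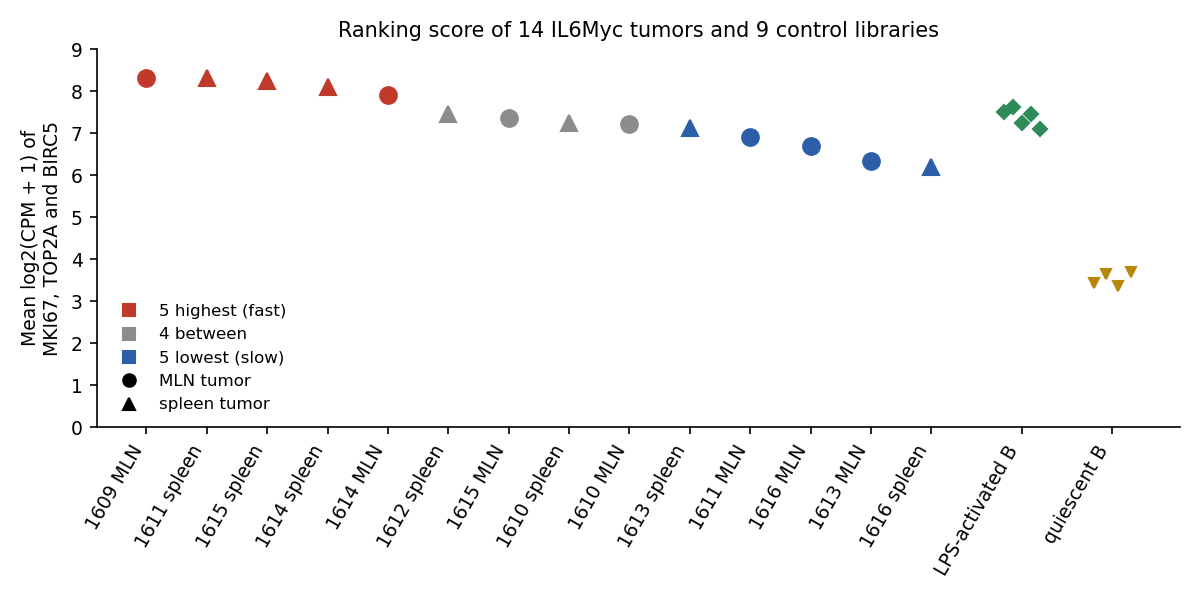
Ranking score of each library, with mean log2(CPM + 1) of MKI67, TOP2A and BIRC5 on the vertical axis and tumors in falling order on the horizontal axis. Circles are MLN tumors and triangles spleen tumors, red the 5 highest, grey the 4 between and blue the 5 lowest, with each of the 5 LPS-activated (diamonds) and 4 quiescent (inverted triangles) B cell libraries at the right. The step under the fast class goes from 7.92 to 7.47, while quiescent cells lie between 3.36 and 3.69.

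As background, a dividing cell makes the transcripts for its cycle in waves. E2F factors switch on the genes of DNA replication around the entry into S phase, and the DREAM complex, which holds cycle genes off in resting cells, gives way to MYB-MuvB and FOXM1, which drive the mitotic genes in G2. Promoters of mitotic genes often carry CCAAT boxes, bound by NF-Y, together with a cell cycle homology region (CHR), which MuvB complexes bind. Plasma cells normally leave the cycle as they mature, and a high proliferation signature is a known mark of aggressive myeloma.

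Promoters are shown because the genes that follow moved together between the classes. Below are the 250 bases before the annotated start of the first 4 genes, by p-value, that passed the threshold in the tumor comparison and had 1 promoter in the RefSeq table of build GRCm38.p6. Capitals mark CCAAT boxes (CCAAT, or ATTGG on the other strand) and CHR letters (TTTGAA or TTCGAA, or TTCAAA on the other strand).
KIF2C (mouse Kif2c, chr4:117178773-117179022, minus strand): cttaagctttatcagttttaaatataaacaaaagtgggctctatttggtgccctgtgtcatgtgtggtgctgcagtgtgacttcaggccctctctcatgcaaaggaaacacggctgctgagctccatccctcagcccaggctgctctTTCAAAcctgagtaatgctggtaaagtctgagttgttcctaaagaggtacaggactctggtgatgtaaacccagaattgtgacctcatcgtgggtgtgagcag
KIF11 (mouse Kif11, chr19:37376132-37376381, plus strand): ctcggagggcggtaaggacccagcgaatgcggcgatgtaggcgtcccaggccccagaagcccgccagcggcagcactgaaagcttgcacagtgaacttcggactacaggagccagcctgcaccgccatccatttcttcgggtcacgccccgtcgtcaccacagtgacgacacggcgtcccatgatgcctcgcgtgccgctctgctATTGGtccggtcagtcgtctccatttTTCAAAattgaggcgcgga
PRR11 (mouse Prr11, chr11:87108715-87108964, minus strand): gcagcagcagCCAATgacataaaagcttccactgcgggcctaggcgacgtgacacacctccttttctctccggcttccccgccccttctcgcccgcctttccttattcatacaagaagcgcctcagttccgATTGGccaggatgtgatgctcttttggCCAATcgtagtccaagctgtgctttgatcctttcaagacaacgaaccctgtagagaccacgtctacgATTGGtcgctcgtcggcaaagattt
ARHGAP11A (mouse Arhgap11a, chr2:113848662-113848911, minus strand): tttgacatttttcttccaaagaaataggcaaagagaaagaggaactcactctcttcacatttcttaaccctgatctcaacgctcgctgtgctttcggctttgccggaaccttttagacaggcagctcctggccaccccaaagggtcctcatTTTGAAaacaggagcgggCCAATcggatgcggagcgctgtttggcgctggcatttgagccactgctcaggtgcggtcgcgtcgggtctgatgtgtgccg
In KIF11 the CCAAT box lies 45 bases and the CHR letters 19 bases before the start. ARHGAP11A has its CHR letters at 99 and its CCAAT box at 81 bases, KIF2C has CHR letters alone at 103 bases, and PRR11 has 4 CCAAT boxes and no CHR letters in this window. Over both strands, 33.8% of the 32851 promoters in the table held a CCAAT box, 17.1% CHR letters and 6.0% both. Of the genes that passed the threshold, without the ranking gene, 27 of 35 matched, with 27 promoters. Their shares were 59.3%, 25.9% and 11.1%, so the 4 genes shown do not stand for the rest. For the mitosis and spindle list, of which 38 of 48 genes matched with 41 promoters, the shares were 75.6%, 36.6% and 34.1%. For the DNA replication list, with 43 of 54 genes matched and 53 promoters, they were 56.6%, 20.8% and 15.1%. E2F-type letters (TTTGGCGC, TTTCCCGC, TTTCGCGC or TTTGGCGG) stood in 24.5% of the replication promoters, in 2.4% of the mitosis promoters and in 2.0% of all. CCAAT boxes were also found in 77.1% of 35 promoters of the unfolded protein response list, whose genes are described further on. The letters are matches and not measured binding sites.

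The libraries differed in makeup within both classes, which bears on the results. Totals of estimated counts lay between 13328866 and 21897188 per tumor library. PAX5, the B cell factor that is lost in plasma cells, stood at 580, 6.39, 938, 86.1 and 742 CPM in the fast tumors and at 762, 885, 180, 871 and 24.1 in the slow ones, in the order of the ranking given above, against a mean of 1510 in quiescent B cells. SDC1, the plasma cell surface proteoglycan CD138, stood at 60.1, 190, 9.44, 112 and 98.1 in the fast and 70.7, 75.1, 473, 116 and 384 CPM in the slow tumors, against 24.0 in quiescent cells. The spleen tumor of mouse 1615, in the fast class, thus had SDC1 under the quiescent mean and PAX5 at 938 CPM, which goes against its label of malignant plasma cells. The slow MLN tumor of mouse 1611, with PAX5 at 885 CPM, had an immunoglobulin share of 2.01%, under the quiescent minimum of 2.23%, and a mean log2(CPM + 1) of 8.75 over the mature B cell genes, against 9.45 in quiescent cells. PAX5 was also above 500 CPM in 2 other fast and 2 other slow tumors. Normal B cells in a tumor library cannot be told apart from tumor cells in such bulk RNA. All libraries are called by their labels here. Immunoglobulin genes took 1.03% to 17.5% of the counts in the fast and 2.01% to 24.6% in the slow tumors, with a mean of 7.58% ± 6.26 (SD, n = 5) against 11.4% ± 9.59 (SD, n = 5), a difference that did not pass (exact permutation test, 2-sided, p = 0.468, adjusted p = 0.585 over 10 values). In tumor tissue, a lower transcript level can come from fewer cells of a type or from less RNA per cell, and the 2 cannot be told apart.

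Markers of red cell precursors were uneven in the fast class. The mean log2(CPM + 1) was taken over the 19 of 23 erythroid markers that had a profile. It was 5.91, 8.08, 3.39, 7.36 and 2.14 in the fast tumors and 5.52, 2.99, 2.73, 1.46 and 3.27 in the slow ones, and 1.60 ± 0.18 (SD, n = 4) in quiescent B cells. It was high in 3 fast tumors, namely the MLN tumor of mouse 1609 and the spleen tumors of mice 1611 and 1614, and in 1 slow tumor, the spleen tumor of mouse 1613. Summed CPM of the list ran from 219.7 to 8004 in the fast and from 123.6 to 1521 in the slow tumors. The class means differed by 2.18 (exact permutation test, 2-sided, n = 5 per class, p = 0.143, adjusted p = 0.585), and the smallest p that 5 against 5 allows is 0.00794. The permutation took the tumors as independent, although some came from the same mouse. With the tumors of 1 mouse averaged within a class, the difference was 2.37 (exact permutation p = 0.114, not adjusted). Without the fast MLN tumor of mouse 1614 the difference was 2.99 (exact permutation p = 0.0317, not adjusted). KLF1, the erythroid master regulator, read 30.6, 149, 2.76, 92.2 and 1.39 CPM in the fast tumors and 14.7, 2.95, 2.92, 0.225 and 2.91 in the slow ones. For the other 8 marker lists (T, NK, macrophage, neutrophil, dendritic, megakaryocyte, mast and stromal cells) the exact permutation p ran from 0.159 to 0.659. Without the slow spleen tumor of mouse 1616, the difference in NK markers went from 0.55 to 0.73 (exact permutation p = 0.0476, not adjusted). It was 0.49 with the tumors of 1 mouse averaged within a class (exact permutation p = 0.171, not adjusted). The part of erythroid cells in the results between the classes was not tested.

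**Figure D2:**
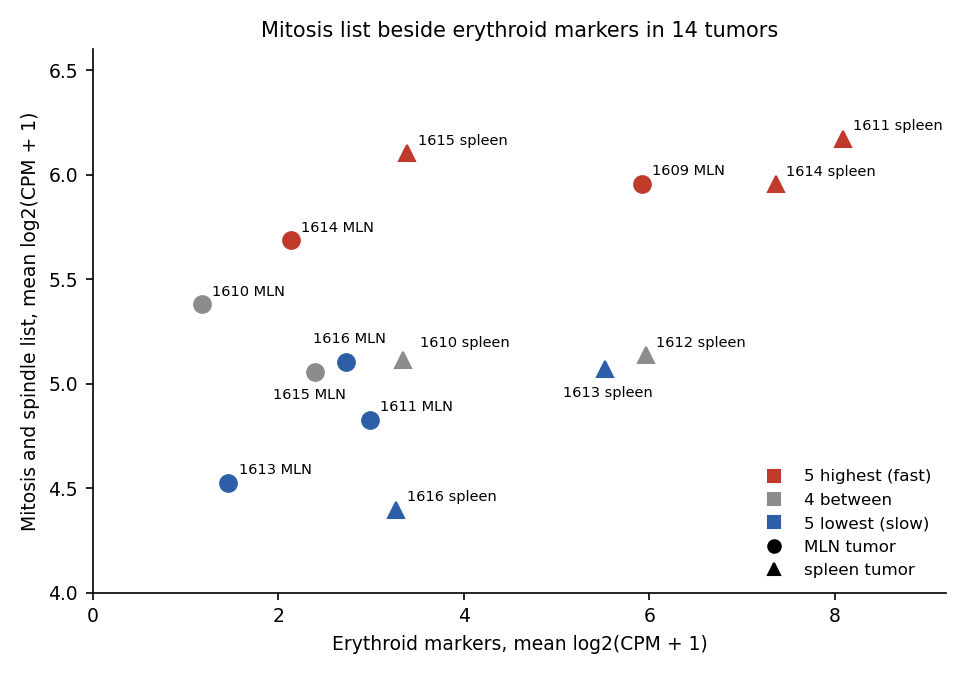
Mean log2(CPM + 1) of the mitosis and spindle list (vertical axis) against that of the erythroid markers (horizontal axis) in each of the 14 tumors. Colours give the class and shapes the tissue. Erythroid levels run from 2.14 to 8.08 in the fast and from 1.46 to 5.52 in the slow tumors, while the separation on the vertical axis comes with the ranking.

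Between the classes, 36 of 11302 genes tested passed an adjusted p of 0.05, which is 0.319%, all of them higher in the fast tumors (edgeR's quasi-likelihood test, Benjamini-Hochberg adjustment). Of the 36, 1 was a ranking gene, 19 stood in the lists of mitosis, DNA replication and repair, and 16 stood in none of these. All 36, referred to as called, had the same adjusted p of 0.0496 (edgeR), close to the threshold, with log2 changes from 0.79 to 1.76. A log2 change of 1 is a factor of 2. No gene passed in the other direction in this edgeR fit, while 407 were lower and 645 higher at an unadjusted p under 0.05. DESeq2 called 277 higher and 80 lower. With the score as a continuous term over 14 tumors, edgeR called 283 higher and 66 lower. The classes were cut from these same libraries by 3 genes, so these p-values describe that cut and are not a separate test of it. The calls were fragile: 21 of 29 other settings gave none, among them tissue as a covariate and the mouse as a random block, and without the MLN tumor of mouse 1616 there were 71, while leaving out any other 1 of the 10 tumors gave 0. The medians of the mitosis, replication and repair lists kept their sign in all settings run, as given with these lists. Every setting orders the tumors by the same 3 genes, so that sign describes the ranking.

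Mitotic genes formed the largest group. In the mitosis and spindle list 47 members were tested, all had a positive log2 change, and their median was 1.27, against -0.06 over all genes tested. In 44 of the 47 the lowest fast tumor stood above the highest slow tumor, where 2.47% of all genes tested showed this (3.19% did not overlap in either direction), and 13 passed the threshold. This list moves with the ranking genes, so its counts describe the ranking and support nothing further. The mean log2(CPM + 1) of the list was 5.96, 6.17, 6.10, 5.96 and 5.69 in the fast tumors and 5.07, 4.83, 5.11, 4.53 and 4.40 in the slow ones. The 4 tumors between stood at 5.14, 5.05, 5.12 and 5.38, quiescent B cells at 2.66 ± 0.08 (SD, n = 4) and LPS-activated cells at 5.24 ± 0.17 (SD, n = 5). The classes did not overlap within either tissue: the MLN tumors were at 5.96 and 5.69 against 4.83, 5.11 and 4.53, and the spleen tumors at 6.17, 6.10 and 5.96 against 5.07 and 4.40. In mouse 1611, the mouse with a tumor in each class, the spleen tumor stood at 6.17 and the MLN tumor at 4.83.

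KIF11, the kinesin that pushes spindle poles apart, stood at 123, 134, 150, 122 and 105 CPM in the fast tumors and at 65.2, 58.4, 56.5, 38.4 and 39.2 in the slow ones. All fast tumors were above all slow ones, with a gap from 65.2 to 105. Quiescent B cells had 4.42 and LPS-activated cells 92.4 CPM on average. KIF2C, a microtubule-depolymerising kinesin of the centromere, had 37.7, 40.7, 47.5, 34.6 and 31.5 CPM against 17.1, 15.4, 17.9, 12.8 and 10.9. KIF4A, a chromosome-bound kinesin, had 39.5, 55.4, 50.5, 43.2 and 35.8 against 21.5, 19.2, 17.2, 17.1 and 13.4 CPM. For each of these motors the spleen tumor of mouse 1616 or the MLN tumor of mouse 1613 was the lowest library. CCNB2, a mitotic cyclin, reached 67.8, 89.7, 84.6, 87.7 and 54.8 CPM in the fast and 39.5, 29.0, 30.4, 25.8 and 15 in the slow tumors. CCNA2, the cyclin of S and G2 phase, had 180, 249, 190, 208 and 135 against 93.4, 69.2, 90.5, 50.9 and 43.4 CPM. AURKA, the spindle pole kinase, had 50.6, 53.8, 46.9, 48.8 and 26.5 against 21.7, 18.8, 18.5, 13 and 8.93 CPM. AURKA in the MLN tumor of mouse 1614, at 26.5, thus lay nearer to the highest slow tumor, at 21.7, than to the other fast tumors.

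Other members with log2 changes near that median serve distinct steps of mitosis. The checkpoint kinase BUB1 changed by 1.20 ± 0.20 (SE), the kinetochore protein CENPF by 1.28 ± 0.20 and the cohesin protector SGO1 by 1.44 ± 0.25. The spindle assembly factor TPX2 changed by 1.32 ± 0.22 and AURKB, the kinase of the chromosomal passenger complex to which BIRC5 belongs, by 1.11 ± 0.19. The largest change in the list was that of CIT, the citron kinase of cytokinesis, at 1.82 ± 0.42, with 72.4 CPM in the fast spleen tumor of mouse 1611 against 27.1 to 39.6 in the other fast tumors. The members whose classes overlapped were CDC25B (0.25), BUB1B (0.64) and NEK2 (0.57).

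Genes of DNA replication followed with smaller and less even changes. Of 53 members tested, 52 had a positive log2 change, with a median of 1.01. In 32 every fast tumor stood above every slow one, where 2.47% of all genes tested showed this. This list also moves with the ranking genes, so its counts describe the ranking. The list's mean log2(CPM + 1) was 6.17, 6.44, 6.32, 6.06 and 5.87 in the fast and 5.46, 5.33, 5.37, 5.01 and 4.64 in the slow tumors, and 6.32 ± 0.12 (SD, n = 5) in LPS-activated cells. The fast tumors were thus around the activated B cells for replication genes and above them for mitotic genes. MCM6, a subunit of the replicative helicase, stood at 241, 307, 298, 236 and 195 CPM in the fast and 122, 125, 111, 86.2 and 58.6 in the slow tumors. PCNA, the polymerase clamp, stood at 309, 346, 356, 280 and 255 against 183, 195, 163, 122 and 117 CPM, with 113 in quiescent and 473 in activated cells. CHAF1A, of the histone chaperone that loads new chromatin, changed by 1.30 ± 0.22 (SE) and ORC6, of the origin recognition complex, by 0.99 ± 0.17. ORC1 had the largest change, 1.84 ± 0.41, yet its classes overlapped, at 8.61 CPM in the MLN tumor of mouse 1614 and 8.64 in the slow spleen tumor of mouse 1613. POLD2, an accessory subunit of polymerase delta, was the 1 member with a negative value, -0.17 ± 0.41.

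The 22 tested genes of homologous recombination and Fanconi repair had a median of 1.10, with 20 positive values. In 13 every fast tumor stood above every slow one, where 2.47% of all genes tested showed this. These counts too describe the ranking, as the list moves with the ranking genes. BRCA1, the recombination factor, stood at 42, 68.5, 49.7, 49.1 and 48.7 CPM in the fast and 22.7, 20.5, 26.2, 15.4 and 16.9 in the slow tumors. Its partner BARD1 changed by 1.32 ± 0.22 (SE) and EME1, of a structure-specific nuclease, by 1.46 ± 0.25. RAD51AP1, which stimulates strand invasion, changed by 1.71 ± 0.35 and the motor RAD54L by 1.21 ± 0.24. BRCA2 (0.60) and its partner PALB2 (0.72), which act in strand invasion, and FANCA (0.09) had classes that overlapped, so the list was not uniform. XRCC3 was at -0.69 ± 0.78.

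**Figure D3:**
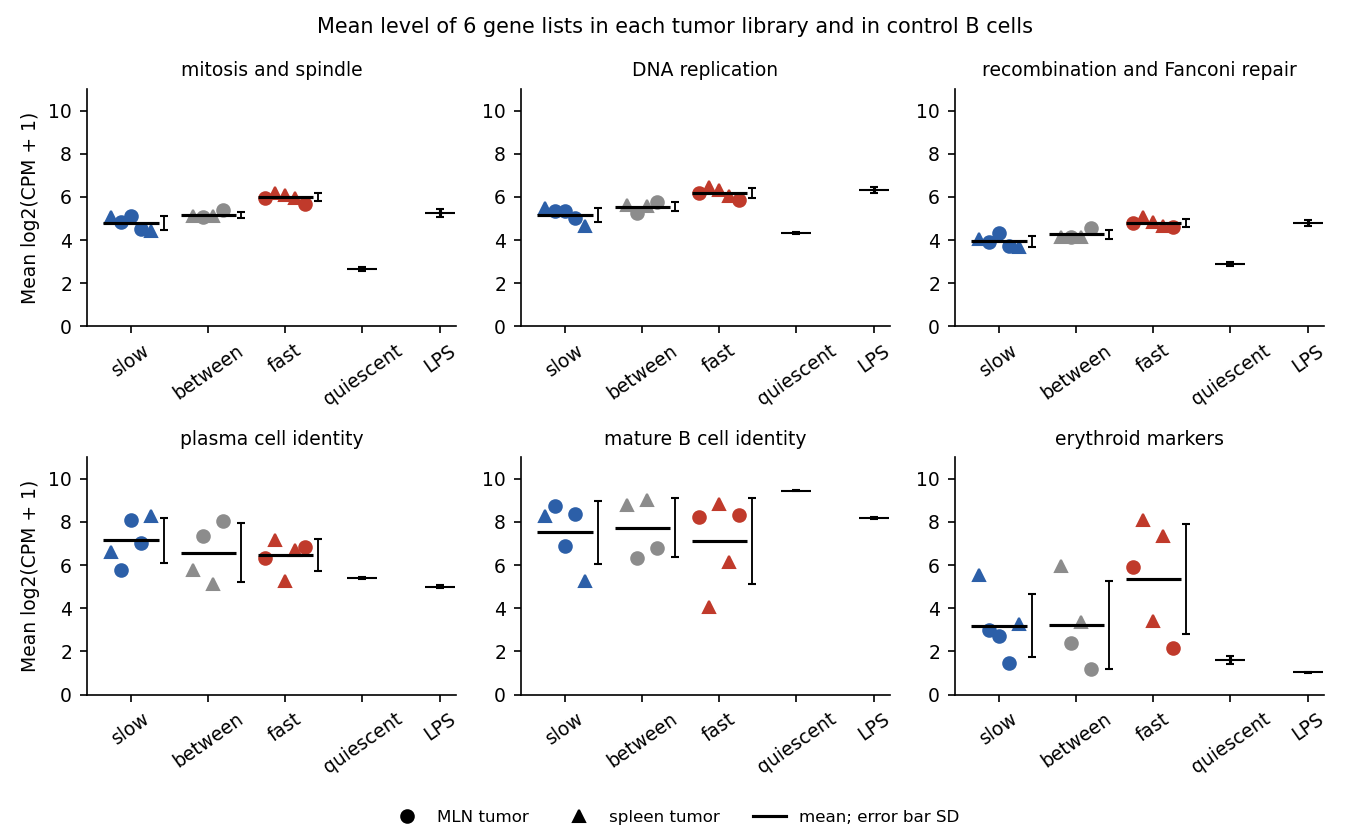
Mean log2(CPM + 1) of 6 gene lists, with each tumor as a point in its class, circles for MLN and triangles for spleen tumors. Horizontal bars are means and error bars SDs, and the 2 control groups are given by mean and SD. Classes are apart in the upper 3 panels, for mitosis with 5.69 to 6.17 against 4.40 to 5.11, and overlap in the lower 3.

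Without the 3 erythroid-rich fast tumors, the medians of the mitosis, replication and repair lists were 1.10, 0.92 and 0.84, and with the erythroid level as a covariate 1.05, 0.86 and 0.90. Without both tumors of mouse 1616 they were 1.31, 0.95 and 1.18. Leaving out any 1 library gave 1.18 to 1.35, 0.91 to 1.09 and 0.98 to 1.23. The direction of these lists was thus the same in each of these settings, although no gene was called in the first 3. All these settings order the tumors by the same 3 genes, with which the lists move. The shared direction thus describes the ranking and supports nothing further.

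Outside these lists, 16 genes passed the threshold. Among them were PRR11, ARHGAP11A, KNL1, FIGNL1, STIL, KIF18A, ERCC6L, KIF15, NEIL3, SKA2, KIFC1, SGO2, KIF18B and SHCBP1. ARHGAP11A and KIFC1 carry names that more than 1 profile or human gene shares, so their identity is less certain. NEIL3, a DNA glycosylase that also acts on crosslinks, had the largest change of the 16, 1.76 ± 0.28 (SE). It stood at 31.5, 39.3, 20.4, 33.3 and 19.3 CPM in the fast and 11.7, 7.91, 9.44, 5.73 and 7.52 in the slow tumors, and at 5.72 in LPS-activated cells. NEIL3 was therefore higher in the slow tumors' mean (8.47) than in activated B cells, and higher still in the fast ones. KIF15, a spindle kinesin that can stand in for KIF11, stood at 82.6, 76.9, 63.5, 57.3 and 45.7 against 29.5, 26.4, 24.0, 16.1 and 14.3 CPM. KNL1, the kinetochore scaffold, had 47.5, 84.4, 57.1, 61.8 and 54.4 against 27.4, 25.3, 25.1, 17.0 and 21.7 CPM. MRPS22, a protein of the mitochondrial ribosome, had 22.1, 27.0, 26.7, 25.3 and 25.2 CPM in the fast and 14.5, 15.9, 14.9, 13 and 14 in the slow tumors, a log2 change of 0.79 ± 0.13 (edgeR adjusted p = 0.0496). Its spread within each class was small, and it had the smallest change of the 36.

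Without the ranking gene, all 35 called genes had a mean in the 4 tumors between that lay between the 2 class means. Those 4 tumors took no part in the fit, but they were ranked by the same 3 genes. Over all 14 tumors, the genes outside the 3 lists whose levels followed the ranking score most closely included HAT1 (Spearman's rho 0.978), a histone acetyltransferase of new histone H4, KIF15 (0.969), SGO2 (0.960), and SMC2 and NEIL3 (both 0.938). HAT1 stood at 84.9, 78.1, 102, 67.7 and 67.3 CPM in the fast and 50.1, 50.1, 36.4, 38.6 and 24.8 in the slow tumors. These coefficients are descriptions over 14 libraries that share mice.

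No gene lower in the fast tumors passed the threshold in the edgeR fit of 5 against 5 tumors. MAPK12, the p38 gamma kinase, had the smallest adjusted p among them, 0.0555 (edgeR), with a log2 change of -1.39 ± 0.25 (SE). It stood at 11.2, 15.4, 13.2, 10.5 and 14.4 CPM in the fast tumors and at 24.9, 24.5, 27.7, 37.9 and 53.1 in the slow ones. The classes did not overlap, the tumors between had 17.9, 20.8, 17.6 and 25.8, and quiescent B cells had 62.9 CPM on average. Its Spearman's rho with the score, -0.925, was the lowest of all genes tested outside the lists. ACOX3, a peroxisomal oxidase, changed by -0.65 ± 0.13, the mTORC2 subunit RICTOR by -0.48 ± 0.11 and the chromatin regulator KMT2E by -0.58 ± 0.13, none past the threshold (edgeR adjusted p = 0.0733, 0.113 and 0.104). Over all genes tested, 0.717% had every slow tumor above every fast one.

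Regulators of the step from G1 to S phase had no common direction. Of 19 tested, 0 passed the threshold, 10 were positive and 9 negative, and their median was 0.03. RBL1, the p107 pocket protein and itself an E2F target, was the member that did not overlap, with 75.3, 80.4, 96.1, 77.7 and 67.2 against 49.1, 56.0, 33.6, 39.4 and 21.1 CPM (log2 change 0.98 ± 0.23, edgeR adjusted p = 0.120). CCND2, a D-type cyclin, ranged from 92.6 to 640 CPM in the fast and from 149 to 1144 in the slow tumors. CCND3 had 189, 256, 194, 232 and 111 against 182, 129, 60.9, 144 and 53.3 CPM (0.79 ± 0.36, edgeR adjusted p = 0.538), and CCND1 stood near 6 CPM in both classes. The inhibitor CDKN1B (p27) stood at 126, 88.8, 113, 114 and 96.3 CPM in the fast and at 165, 152, 109, 160 and 158 in the slow tumors, with 263 in quiescent cells (-0.48 ± 0.15, edgeR adjusted p = 0.289). The MLN tumor of mouse 1616 was the 1 slow tumor within the fast range. CDKN1A (p21) ranged from 5.36 to 68.5 against 20.9 to 118 CPM.

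Genes of quiescence and growth restraint tended the other way without passing: 17 of 18 tested were negative, with a median of -0.33, and 0 were called. All 18 were called lower in LPS-activated than in quiescent cells, where 40.6% of all 10033 genes tested were called lower. PIK3IP1, an inhibitor of PI3 kinase signalling, had the lowest value, -1.70 ± 0.76 (SE), from levels of 190 and 200 CPM in the slow spleen and MLN tumors of mouse 1613 and 13.4 to 62.4 in the other slow tumors. The fast tumors had 13.7 to 47.2 CPM, and the high values were those of mouse 1613. The p53 targets had a median of -0.30 over 20 genes, with 0 called, and 0.15 without both tumors of mouse 1616.

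MYC itself did not pass in either direction, and the sign of its change rested on 1 mouse. It stood at 409, 1241, 312, 621 and 822 CPM in the fast and at 494, 421, 1399, 718 and 2109 in the slow tumors, where quiescent cells had 69.8 and LPS-activated cells 221 on average. The 2 highest slow values, 1399 and 2109, are the MLN and spleen tumors of mouse 1616. The log2 change was -0.61 ± 0.54 (SE, edgeR adjusted p = 0.764). Without the spleen tumor of mouse 1616 it was -0.16, and without both tumors of that mouse 0.36 (edgeR adjusted p = 0.972 and 0.754). Whether reads came from the transgene or the mouse's own gene was not tested. Of the 11 tested genes of the MYC network, 0 were called, with a median of -0.39. MXD3, a MAX partner known to be high in S phase, had 12.9, 12.4, 13.7, 12 and 8.17 against 8.58, 5.35, 3.30, 4.66 and 0.903 CPM (1.37 ± 0.47, edgeR adjusted p = 0.385). The level under the name IL6 was too low to be tested. Whether reads of an IL6 transgene were counted under that name was not tested. The IL6 receptor IL6R changed by 0.13 ± 0.53.

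No gene of growth metabolism was called between the classes, and the medians of these lists were small. They were 0.08 over 41 genes of ribosome biogenesis, 0.17 over 25 of nucleotide synthesis, 0.12 over 33 of oxidative phosphorylation, 0.07 over 25 of the proteasome, -0.01 over 22 of glycolysis and -0.04 over 23 of cholesterol and fatty acid synthesis. Leaving out 1 library gave 0.02 to 0.22 for ribosome biogenesis, 0.09 to 0.31 for nucleotide synthesis, 0.05 to 0.25 for oxidative phosphorylation and -0.04 to 0.21 for the proteasome. For glycolysis it gave -0.11 to 0.27, the highest without the MLN tumor of mouse 1611, and for cholesterol and fatty acid synthesis -0.09 to 0.12. Without both tumors of mouse 1616 the medians were 0.41 for ribosome biogenesis and MYC targets, 0.50 for nucleotide synthesis, 0.38 for oxidative phosphorylation, 0.43 for the proteasome, -0.02 for glycolysis and glucose uptake and 0.37 for cholesterol and fatty acid synthesis. In LPS-activated against quiescent cells, 40 of 41, 23 of 25, 31 of 33, 25 of 25, 20 of 20 and 23 of 23 genes of these lists were higher. In the B cell comparison, where 40.2% of 10033 genes tested were called higher and 40.6% lower (80.8% in all), they rose along with the cycle genes. Whether the tumor and B cell comparisons differ for these lists was not tested.

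Chromatin genes had values of both signs. Of 35 tested, 0 were called, 12 were higher and 4 lower at an unadjusted p under 0.05, and the median was 0.27. Over all 11302 genes tested, 645 were higher and 407 lower at that p. The classes were cut on proliferation genes, so members tied to cell division may describe that cut. The condensin subunits NCAPG (1.25 ± 0.22, SE) and SMC2 (1.10 ± 0.21), which compact mitotic chromosomes, did not overlap between the classes (edgeR adjusted p = 0.0507 and 0.0579). HMGB2, a chromatin protein abundant in dividing cells, had 464, 437, 546, 413 and 349 against 227, 233, 145, 158 and 65.3 CPM (edgeR adjusted p = 0.0960). EZH2, the methyltransferase of polycomb complex PRC2, had 106, 83.6, 118, 73.4 and 73.0 against 45.7, 55.1, 30.9, 36.6 and 16.3 CPM, a change of 1.28 ± 0.29 (edgeR adjusted p = 0.104). Its PRC2 partners EED (0.19) and SUZ12 (0.28) had classes that overlapped, and the paralog EZH1 was at -0.44. NSD2, the methyltransferase activated by a translocation in human myeloma, had 150, 137, 151, 130 and 121 against 79.1, 98.3, 61.5, 45.3 and 52.5 CPM (1.02 ± 0.20, edgeR adjusted p = 0.0713). The deacetylases HDAC4 and HDAC5 were higher in every slow than in every fast tumor, with changes of -0.46 ± 0.17 and -0.48 ± 0.14 (edgeR adjusted p = 0.417 and 0.274).

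**Figure D4:**
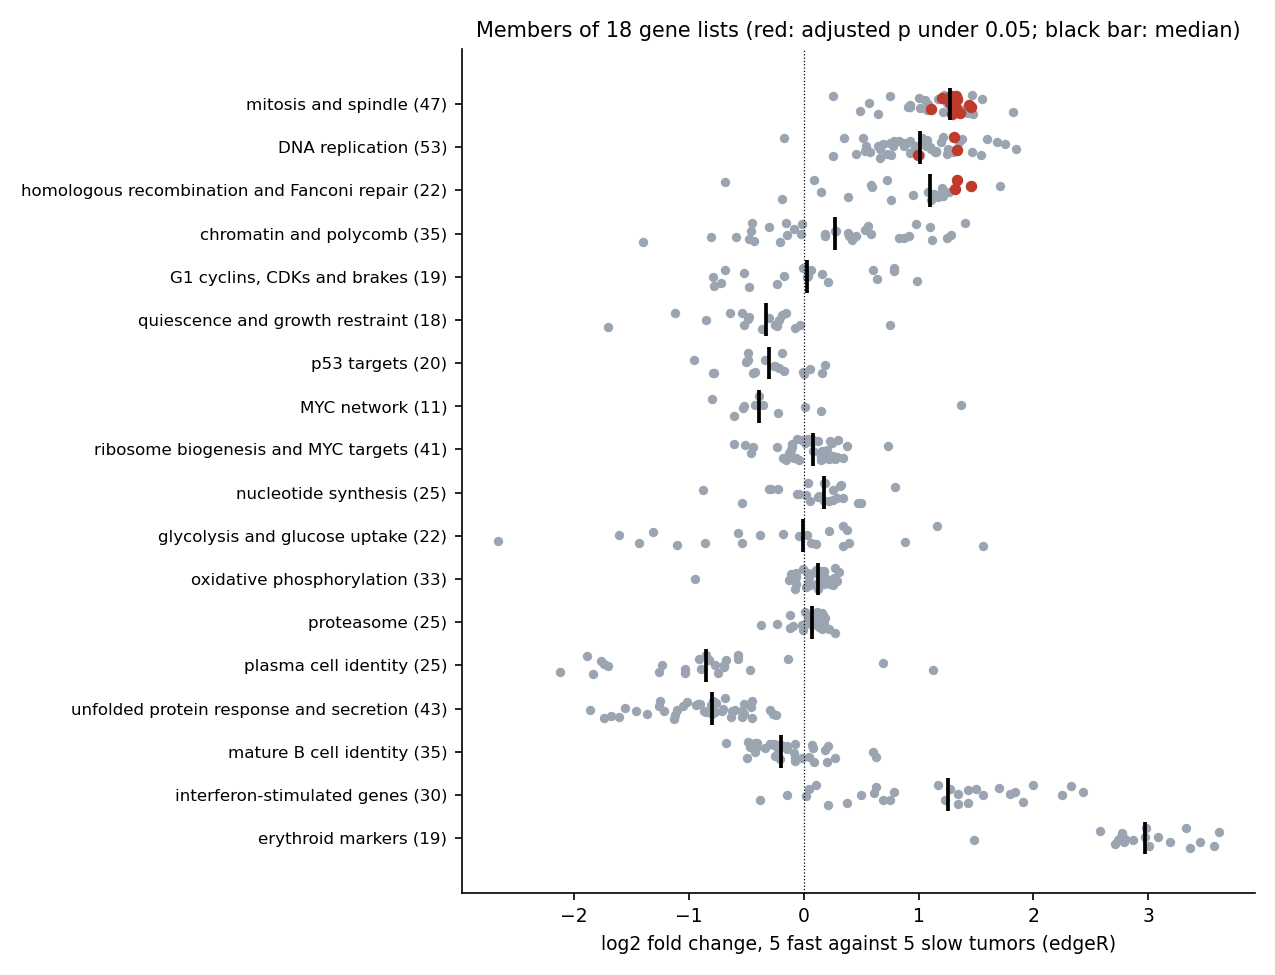
Log2 fold change of the fast against the slow tumors for each tested member of 18 gene lists, with the number tested in brackets. Red points passed an adjusted p of 0.05, black bars are medians and vertical scatter has no meaning. Medians of the upper 3 lists are 1.27, 1.01 and 1.10, and the erythroid markers reach 2.98 with 0 called.

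Plasma cell genes were lower in the fast tumors on average, but the difference rested on 1 mouse. The median over 25 plasma cell identity genes was -0.86, with 23 negative, and over 43 genes of secretion and the unfolded protein response -0.80, with all 43 negative and 0 called in either list. Without both tumors of mouse 1616, the medians turned to 0.14 and 0.32. XBP1, the factor that drives secretion, had 452, 2247, 175, 1062 and 1254 CPM in the fast and 606, 228, 3413, 930 and 4430 in the slow tumors, where 3413 and 4430 are the tumors of mouse 1616. JCHAIN, the joining chain of polymeric antibody, had 1722, 2134, 459, 1432 and 2856 against 2889, 380, 13076, 4609 and 10618 CPM (-1.89 ± 0.81, SE, edgeR adjusted p = 0.507). HSPA5, the main chaperone of the endoplasmic reticulum, had 617 to 4319 CPM in the fast and 883 to 9138 in the slow tumors. TNFRSF17 (BCMA), a survival receptor, had 0.424 to 3.43 against 0.770 to 12.8 CPM. IRF4 changed by -1.03 ± 0.64, PRDM1 by -0.47 ± 0.77 and SDC1 by -1.26 ± 0.79, none past the threshold (edgeR adjusted p = 0.655, 0.890 and 0.655).

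The list of antibody constant chains had 6 tested genes, and 0 were called. At an unadjusted p under 0.05, 1 was higher and 2 lower, against 645 and 407 of all 11302 genes tested. Of the 6, 1 is not itself an immunoglobulin gene by name. It stayed when immunoglobulin genes were left out, with a log2 change of -1.87. IGHA1 (the mouse alpha heavy chain) had 117308 CPM in the fast spleen tumor of mouse 1611 and 258908 in the slow MLN tumor of mouse 1616, and at most 22792 in the other 8 tumors compared. IGHM had 977 to 9058 CPM in the fast and 392 to 3429 in the slow tumors. IGHE, the epsilon heavy chain, had the highest change, 3.05 ± 1.36 (SE, edgeR adjusted p = 0.534), with 173 CPM in the fast MLN tumor of mouse 1614 and 0.744 to 26.9 in the other fast tumors. The profile named IGLC1 had the lowest, -3.14 ± 1.31 (SE, edgeR adjusted p = 0.498). The IGLC1 name is shared by more than 1 profile, so its identity is less certain. The mature B cell identity list had a median of -0.20 over 35 genes, with 0 called. That sign depended on single libraries: it was 0.11 without the spleen tumor of mouse 1611, 0.10 without the MLN tumor of that mouse, 0.04 without the spleen tumor of mouse 1614 and -0.57 without the spleen tumor of mouse 1615. Changes were -0.23 ± 1.11 for PAX5 and -0.02 ± 1.05 for MS4A1 (CD20). Of survival genes, BCL2 changed by 0.07 ± 0.73 and MCL1 by -0.40 ± 0.21 (edgeR adjusted p = 0.992 and 0.595). The standard errors of PAX5 and MS4A1 exceeded 1. The mean log2(CPM + 1) of the mature B cell list ran from 4.07 to 8.83 in the fast and from 5.26 to 8.75 in the slow tumors.

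Interferon-stimulated genes were higher in the fast tumors by their median, 1.25 over 30 genes with 28 positive and 0 called. Their mean log2(CPM + 1) was 5.17, 7.01, 4.75, 7.15 and 4.78 in the fast and 4.73, 6.31, 4.63, 4.26 and 4.81 in the slow tumors. The high values were those of the spleen tumors of mice 1611 and 1614 and of the slow MLN tumor of mouse 1611. RSAD2, an antiviral enzyme, had 398 and 230 CPM in those 2 spleen tumors and 7.60 to 24.8 in the other fast ones. Without the 3 erythroid-rich fast tumors, which include both, the median was -0.57. In the same setting the neutrophil median went from 1.38 to -2.20 and the erythroid median from 2.98 to -1.23. The part of these cells in the interferon result was not tested.

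LPS-activated and quiescent B cells gave a reference that shares no library with the tumors. Without the ranking gene, all 35 genes called in the tumors were called higher in the activated cells. Of all 10033 genes tested there, 40.2% were called higher. Outside the 3 lists and the ranking genes, 458 genes tested in both comparisons were higher in the fast tumors at an unadjusted p under 0.05, and 375 of them (81.9%) were called higher in activated cells, against 39.4% of all 9814 such genes. Of 378 that were lower in the fast tumors, 269 (71.2%) were called lower in activated cells, against 41.1%. The 458 and 378 genes were picked by classes cut on proliferation genes, and mitotic genes such as KNL1 and KIF15 stand outside the lists. These shares thus describe the ranking and are no separate support. Across these 9814 genes, which are not independent of each other, Spearman's rho between the log2 changes of the comparisons was 0.221. Within the 3 lists and the ranking genes, 118 of 125 were called higher in activated cells, with a median log2 change of 2.49. The medians of the mitosis, replication and repair lists were 1.27, 1.01 and 1.10 in the tumors and 3.36, 2.07 and 2.27 in the B cells. KIF11 changed by 1.29 in the tumors and by 4.39 in the B cells. KIF18A (1.22 and 1.03) and SKA2 (1.01 and 0.95) changed slightly more in the tumors.

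**Figure D5:**
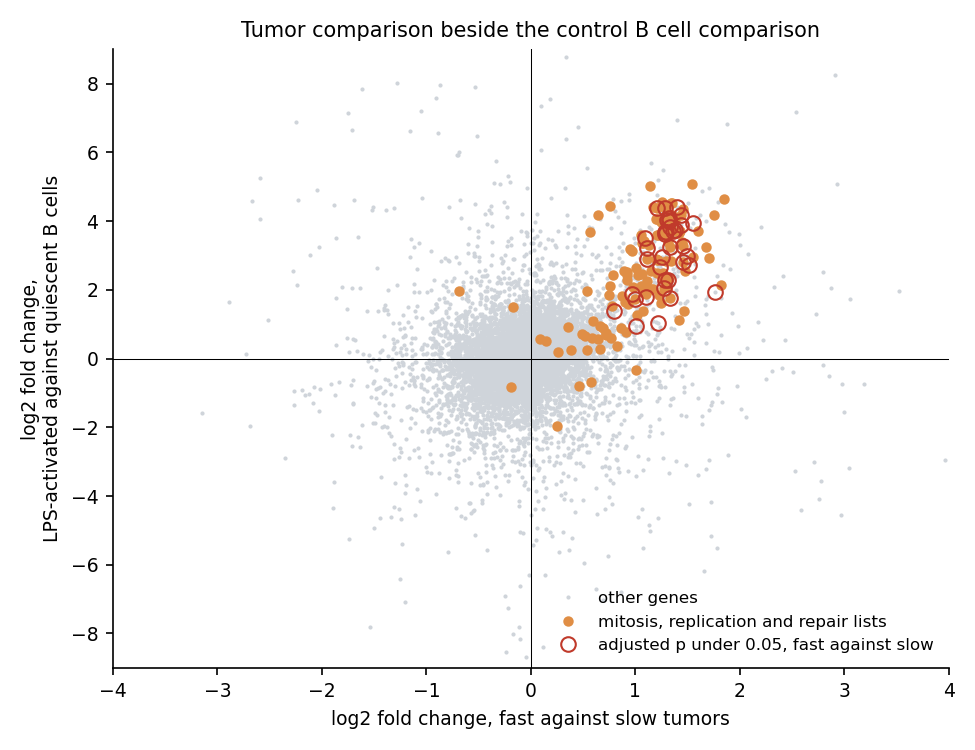
Log2 fold change of LPS-activated against quiescent B cells (vertical axis) against that of fast against slow tumors (horizontal axis), 1 point per gene tested in both, with 10 genes outside the axes. Orange points are the mitosis, replication and repair lists and red rings the genes that passed an adjusted p of 0.05 in the tumor comparison. All 36 rings lie above and to the right of 0.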

How the data were processed

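Values are estimated counts per gene, as deposited by the authors in 1 table under human gene symbols, although the table's name speaks of TPM. They are not whole and sum to 13328866 to 21897188 per tumor library. The submitters' processing notes name Trim Galore 0.4.0, DESeq2 and build GRCm39. The sources used here do not name the quantifier or the step that gave human symbols.

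Of 61651 entries 17047 had a value above 0, and identical entries were merged into 15881 profiles. Counts were rounded and tested with edgeR 4.0.16 (quasi-likelihood, TMM factors, 2-sided) in R 4.3.3. Genes at 1 CPM or more in at least 4 of the 10 tumor libraries were tested. Adjusted p-values are Benjamini-Hochberg over all genes tested, with a threshold of 0.05. The value after ± on a log2 change (SE) is an approximate standard error, the size of the change over the root of the F statistic. CPM values outside the ranking were scaled by TMM. Alternatives used limma 3.58.1 and DESeq2 1.42.0, and the code was tested on simulated data. Marker levels and the immunoglobulin share were tested by exact permutation over the 10 tumors (scipy 1.17.1), with 10 values adjusted together. The permutation took these tumors as independent, although some share a mouse. Promoter sequences come from RefSeq (GRCm38.p6), matched by symbol, with no coordinates taken for the files' genes.

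The fast and slow classes, their members and the gene lists were chosen with earlier results of these data known. Genes named are a fixed set of model and B cell genes, the called genes outside the lists, the largest changes and smallest p in each list, and those closest to the score by rank. CCNB2, PCNA, KLF1, HSPA5 and list members given as overlapping were named after their values were seen, as were members of the mitosis list beyond the largest. A few genes that this rule picks are not reported here. Equal mouse numbers mark tumors of 1 animal, per the series' design. After subtracting tissue means, tumors of 1 mouse correlated at -0.205, -0.36, 0.407, -0.3, -0.496 and 0.73 for mice 1610, 1611, 1613, 1614, 1615 and 1616. Separate animals are not stated for the B cell libraries, so p-values there measure the spread between libraries, which may be technical.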

Additional observations from a re-analysis of the deposited data

Results flagged for a closer look

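Within a class of 5 tumors, a value was picked out where its gap to the nearest other tumor, divided by the class's range, exceeded Dixon's critical value. This was done in each class for the list levels and for the tested genes named with values other than the ranking genes. In all, 18 were picked out, which is 7.14% of those checked. About 1 in 20 would be picked out by chance if the values were independent and normally distributed. The values checked share libraries, and some genes were named after their values were seen, so the share is not a test. Of the 18, the spleen tumor of mouse 1611 stood apart in 5, all in the fast class. Its mean log2(CPM + 1) was 6.25 for quiescence genes, against 6.70 to 6.83 in the other fast tumors, and 4.28 for NF-kB subunits and targets, against 5.57 to 5.98. Its CIT level was 72.4 CPM (27.1 to 39.6 in the others), its XRCC3 level 53.8 CPM (15.8 to 23.7) and its IGHA1 level 117308 CPM (1282 to 22792). The fast MLN tumor of mouse 1614 had 26.5 CPM of AURKA against 46.9 to 53.8 and 173 CPM of IGHE against 0.744 to 26.9, and the fast spleen tumor of mouse 1615 had 367 CPM of ANP32E against 264 to 293. In the slow class, the MLN tumor of mouse 1611 stood apart with 7.16 for glycolysis (5.68 to 6.10) and 6.31 for interferon-stimulated genes (4.26 to 4.81). It also had 1287 CPM of MCL1 (712 to 792) and 82.6 CPM of RSAD2 (1.74 to 17.4). The slow spleen tumor of mouse 1613 had 28.8 CPM of BRCA2 (18.3 to 21.3) and 14.7 CPM of KLF1 (0.225 to 2.95), and the MLN tumor of that mouse had 12.6 CPM of BUB1 (22.8 to 26). The MLN tumor of mouse 1616 had 109 CPM of CDKN1B (152 to 165) and 258908 CPM of IGHA1 (1875 to 8583), and the spleen tumor of that mouse had 325 CPM of VEGFA (52.8 to 114).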

How the results depend on the processing

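The number of genes called higher in the fast tumors, 36 (19 in the 3 cycle lists, 16 outside them and 1 ranking gene), changed with the processing. It was 277 with DESeq2 (93 in the lists and 181 outside), 59 with limma on log2(CPM + 1) (33 in the lists), 63 with upper-quartile factors (35 and 26), 66 when genes needed 5 CPM in 5 libraries (36 and 28), 77 after quantile normalization (42 and 32), 283 with the score as a continuous term over 14 tumors (96 and 184) and 84 with the ranking by TMM-scaled CPM (41 and 41). It was 0 in all 3 counts with RLE size factors, with immunoglobulin genes left out, with no filter, with tissue as a covariate, with tumors of 1 mouse summed, with 4 against 4 and with 7 against 7 tumors. It was also 0 with the mouse as a random replicate block (limma voom, consensus correlation 0.254). Genes called lower went from 0 to 80 with DESeq2, 1 with the 5 CPM filter, 66 with the continuous score and 2 with the TMM ranking. Leaving out 1 library gave 0 to 71 genes higher (0 to 36 in the lists, 0 to 33 outside) and 0 to 2 lower, where the highest values came without the MLN tumor of mouse 1616 and each other omission gave 0. A fixed mouse block over the 5 against 5 tumors was not run because only mouse 1611 has a tumor in each class. Alternatives added after seeing the data also gave 0 in all 3 counts: without the 3 erythroid-rich fast tumors, without both tumors of mouse 1616, with the erythroid level as a covariate, and with the mouse as a fixed replicate block and a continuous score over 12 tumors of 6 mice. The cause of these changes was not tested, except that settings with fewer tumors have less data. The erythroid difference of 2.18 was 3.57 with 4 against 4 tumors (exact permutation p = 0.0286), and leaving out 1 library gave 1.505 to 2.99 for erythroid and 0.344 to 0.728 for NK markers, with the p of the highest under 0.05 unadjusted. Averaging the tumors of 1 mouse within a class gave 2.37 and 0.49 (exact permutation p = 0.114 and 0.171, not adjusted). Over all settings the median log2 change stayed between 0.83 and 1.43 for mitosis, 0.69 and 1.17 for replication and 0.66 and 1.23 for repair genes. The values 0.83 and 0.69 come from the continuous score over 14 tumors. They are changes per unit of score and not between classes. The 7 against 7 tumors gave 0.92, 0.73 and 0.66. These lists move with the 3 ranking genes, which order the tumors in every setting. No called gene among those named changed sign. For the B cell comparison, 4033 higher and 4076 lower genes became 4006 and 3884 with the replicate number as a block, although the numbers did not pair the libraries (correlations -0.0154 to 0.00273). With 5 tumors a class, genes of low count or wide spread between tumors could not be resolved.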

Other observations

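Signalling and survival genes not described above showed no called gene between the classes (edgeR, adjusted p under 0.05). The IL6 and STAT3 response list had a median log2 change of -0.11 over 25 genes, with 8 positive and 17 negative. VEGFA, the angiogenic growth factor, had the largest change in it, -1.71 ± 0.77 (SE, edgeR adjusted p = 0.538), with means of 40.1 CPM in the fast and 131 in the slow tumors, of which the spleen tumor of mouse 1616 had 325. SOCS3, the feedback inhibitor of STAT3 signalling, was at -0.96 ± 0.60. The list of NF-kB subunits and targets had a median of -0.15 over 26 genes, which was 0.33 with 21 positive without the MLN tumor of mouse 1611 and 0.10 without the spleen tumor of that mouse. The BCL2 family had -0.25 over 16, which was 0.03 with 10 positive without the spleen tumor of mouse 1616. The germinal center and pre-B genes had a median of 0.59 over 13 genes, with 11 positive. Leaving out 1 library gave 0.34 to 0.93, and with the mouse as a random block it was -0.12, with 3 of 13 positive. The direction of these 3 lists thus depended on the setting. In the myeloma-associated list, with a median of 0.08 over 26 genes, 4 members were higher in every fast than in every slow tumor, where 2.47% of all genes tested showed this. Among them were TRIP13, a checkpoint ATPase, at 1.02 ± 0.21 (edgeR adjusted p = 0.0884), and ANP32E, a histone chaperone, at 0.68 ± 0.13 (edgeR adjusted p = 0.0567).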
